A study of Mus musculus with 8 samples.

Results

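The metallothioneins Mt1, Mt2 and Mt3 were followed in mouse embryos of embryonic day 16, in RNA of the brain cortex. They were chosen by name, as the probe sets that the platform annotation maps to exactly 1 symbol, that symbol being Mt1, Mt2 or Mt3. Each gene had 1 such probe set, giving 3 of the 28853 probe sets measured and 3 of the 19938 genes tested. The embryos labelled VEGF were GFAP-tTA: TetO-VEGF-A164 bitransgenics with induced overexpression of VEGF, whose VEGF-A164 transgene is switched on by a tetracycline-controlled transactivator made from the Gfap promoter, which is active in glia and neural progenitors. The embryos labelled control were wild type and lacked TetO-VEGF-A164, and the labels do not say whether they carried GFAP-tTA. Both groups had a mixed strain background and 4 Affymetrix arrays each, named here by group and replicate number. The labels do not say whether the 4 arrays of a group came from separate litters or from pooled embryos, so the spread within a group may be technical in part.

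Metallothioneins are small, cysteine-rich proteins that bind zinc and copper and take up reactive oxygen species. Mt1 and Mt2 are made in most tissues and are switched on together by zinc, through the metal-sensing transcription factor Mtf1, and by glucocorticoids and interleukin 6 type cytokines. Mt3 is the form enriched in brain, where it is known from zinc-rich glutamatergic neurons and from astrocytes, and it was first described as a growth inhibitory factor for neurons. It is not induced by metals in the way of the other two. In the RefSeq gene order of GRCm38.p6 the family lies together on chromosome 8 as Mt4, Mt3, Mt2 and Mt1, all on the plus strand. Mt4 is the form of stratified epithelium and was measured beside the 3 genes.

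The promoters of the 3 genes are shown because metal induction acts there, through the metal response element that Mtf1 binds. RefSeq's GRCm38.p6 table gave 1 window per gene, from 250 bases before to 50 bases after the annotated start. Capitals mark matches to the core of the metal response element, TGCACNC or TGCGCNC, searched on both strands, and a match on the minus strand appears as its reverse complement. The 250 bases before the start come first for each gene, then 30 bases after it that hold the remaining matches.
Mt3, chr8:94152357-94152606, plus strand: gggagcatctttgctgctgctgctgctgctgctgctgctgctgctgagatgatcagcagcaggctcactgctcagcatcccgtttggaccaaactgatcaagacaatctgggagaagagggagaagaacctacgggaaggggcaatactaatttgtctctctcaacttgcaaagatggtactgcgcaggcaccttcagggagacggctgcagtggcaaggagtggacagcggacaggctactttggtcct
Mt3, chr8:94152617-94152646, plus strand: gagactcgggacagcagTGCACACacacgg
Mt1, chr8:94178839-94179088, plus strand: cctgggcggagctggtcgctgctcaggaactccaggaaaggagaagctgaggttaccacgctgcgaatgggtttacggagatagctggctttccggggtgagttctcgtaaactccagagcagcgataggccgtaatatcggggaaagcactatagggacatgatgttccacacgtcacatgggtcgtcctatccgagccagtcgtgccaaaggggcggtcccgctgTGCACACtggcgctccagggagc
Mt1, chr8:94179089-94179118, plus strand: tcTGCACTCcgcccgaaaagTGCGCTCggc
Mt2, chr8:94172368-94172617, plus strand: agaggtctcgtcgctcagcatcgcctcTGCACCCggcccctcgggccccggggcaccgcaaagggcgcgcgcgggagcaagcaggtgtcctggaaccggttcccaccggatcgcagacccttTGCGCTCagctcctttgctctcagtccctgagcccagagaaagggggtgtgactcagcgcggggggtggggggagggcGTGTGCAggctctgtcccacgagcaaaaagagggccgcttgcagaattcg
Mt2, chr8:94172618-94172647, plus strand: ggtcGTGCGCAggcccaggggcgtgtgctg

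The whole window of Mt3 held 1 match, at positions 28 to 34 counted from the annotated start as 1, and none before that start. That of Mt1 held 3 matches, with the first at -23 to -17 and the others at 3 to 9 and 21 to 27. That of Mt2 held 4, of which 2 were on the minus strand. Of the 32851 windows of the same length in the table, 25.7% held at least 1 match, 1.97% at least 3 and 0.517% at least 4. So a single match, as in Mt3 and in Mt4, is common among promoters, while counts like those of Mt1 and Mt2 are rare. The core of the antioxidant response element, TGACNNNGC, the site of Nrf2, had 1 match in Mt2 and none in the windows of Mt1 and Mt3, against 12.4% of all windows with at least 1. These are letter matches in a fixed window and say nothing of binding. The window rests on the annotated start, and bases beyond it were not searched. A gene without a match here may hold sites outside the window. Whether transcripts in cortex begin at these annotated starts was not tested.

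The deposited values are logarithms, taken to be of base 2, and are centred so that each probe set has a median of 0 over the 8 arrays. A value therefore says how far an array lies from that median, and no level is kept. Levels cannot be compared between the 3 genes, and a cortical origin cannot be checked from the presence of marker genes. Array medians lay between -0.0091 and 0.015. Vegfa, the gene of the transgene, differed by 0.05 between VEGF and control with an SE of 0.051, so the labels are not checked by it. No source used here says whether its probe set reads the transgene. VEGF 4 lay closer to the control arrays than the other VEGF arrays did in Mt3 and in the projection neuron genes described below. The Mt3 difference and the counts of genes past the test are given with and without it. List medians and the differences of listed genes are given with it only.

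Mt3 was lower in the VEGF group. It stood at -0.37 in VEGF 1, -0.46 in VEGF 2, -0.42 in VEGF 3 and -0.023 in VEGF 4, against 0.16, 0.18, 0.023 and 0.093 in control 1 to 4. The first 3 VEGF arrays lay close together and far below every control array, while VEGF 4 lay just under the lowest control array. The groups did not overlap, though the gap between VEGF 4 and control 3 was only 0.046, and the equal distance of these 2 arrays from 0 follows from the centring. The mean was -0.32 ± 0.20 in VEGF and 0.11 ± 0.072 in control (SD, n = 4 each). VEGF minus control was -0.43 (SE 0.091), which is 0.741-fold if the base is 2. The difference was -0.53 with an SE of 0.050 without VEGF 4. From the lowest, Mt3 had rank 69 of the 19938 genes by this difference. Its SD over the 8 arrays was larger than that of 98% of genes.

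Mt1 leaned the other way. It was at 0.0094, -0.0094, 0.36 and 0.013 in VEGF 1 to 4, against -0.15, -0.048, 0.059 and -0.24 in control 1 to 4. VEGF 3 was the highest of the 8 arrays by far, the other VEGF arrays lay at the common median, and control 3 was above all of those. The groups thus overlapped. The mean was 0.092 ± 0.18 in VEGF and -0.094 ± 0.13 in control (SD, n = 4 each), and VEGF minus control was 0.19 (SE 0.093). It rested in good part on VEGF 3, and was 0.098 without that array.

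Mt2 did not separate the groups. Its values were -0.21, -0.13, 0.19 and 0.0071 in VEGF 1 to 4, and -0.0071, 0.15, 0.20 and -0.21 in control 1 to 4. Each group held 1 array near 0.2 and 1 near -0.2, so that the ranges nearly coincided. The mean was -0.037 ± 0.18 in VEGF and 0.033 ± 0.18 in control (SD, n = 4 each), and VEGF minus control was -0.07 (SE 0.107). It lay between -0.15 without control 4 and -0.011 without VEGF 1. Mt4 differed by -0.10 with an SE of 0.054 (adjusted p = 0.522 in limma), with -0.19 in VEGF 2 and 0.15 in control 2 as its extremes.

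**Figure D1:**
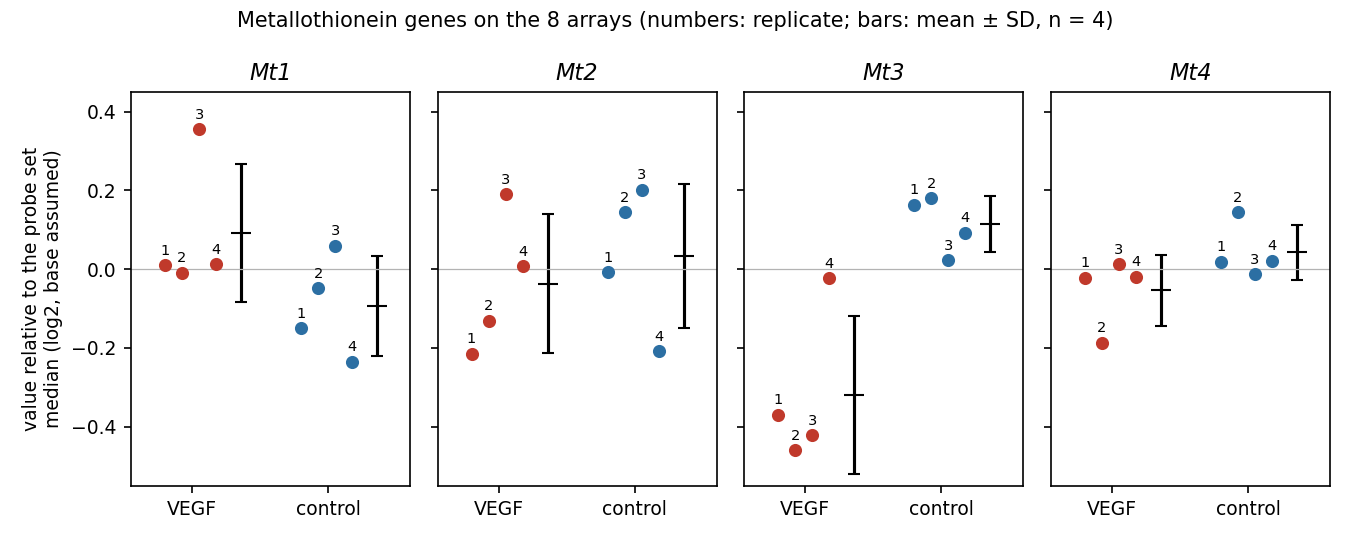
Values of Mt1, Mt2, Mt3 and Mt4 on each array, relative to the probe set's median over the 8 arrays (y axis, log2 scale, base assumed), for VEGF (red, left) and control (blue, right). Points carry their replicate number and bars give the mean ± SD of 4 arrays. In Mt3, VEGF 1 to 3 sit between -0.46 and -0.37 and VEGF 4 at -0.023, below the control arrays at 0.023 to 0.18, while the groups of Mt1, Mt2 and Mt4 overlap.

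None of the 3 genes passed a test over all genes, since none did at all. Of the 19938 genes fitted with limma, 0 had an adjusted p under 0.05 (0%), the lowest being 0.219. Before adjustment, 2484 genes had a p under 0.05 in limma (12.5%) and 2114 in the methods' t-test (10.6%), which also had 0 after adjustment. Without VEGF 4, 10 genes passed in limma (0.0502%), with Mt3 among them and Mt1 and Mt2 not. Nothing is read from this for the family, since VEGF 4 is the VEGF array nearest to control in Mt3 itself. Groups that did not overlap, with VEGF lower, were found in 939 genes (4.71%), of which Mt3 was 1, and with VEGF higher in 425 genes (2.13%), none of them a metallothionein. Because the family was singled out with such results known, its differences are a description, and no p-value is given for its members.

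The brain isoform was next set against the inducible pair within each array. Mt3 minus the mean of Mt1 and Mt2 was -0.27, -0.39, -0.70 and -0.033 in VEGF 1 to 4, against 0.24, 0.13, -0.11 and 0.31 in control 1 to 4. Of the VEGF arrays 3 lay below every control array, while VEGF 4 lay above control 3. The lowest value, that of VEGF 3, came from a low Mt3 together with the highest Mt1 of the series. Among the control arrays control 3 was the lowest, with the lowest Mt3 and the highest Mt1 and Mt2 of its group. The mean was -0.35 ± 0.28 in VEGF and 0.15 ± 0.18 in control (SD, n = 4 each), and VEGF minus control was -0.49 (SE 0.166). The mean of Mt1 and Mt2 alone differed by 0.058 with an SE of 0.115, so most of that difference was the difference in Mt3.

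**Figure D2:**
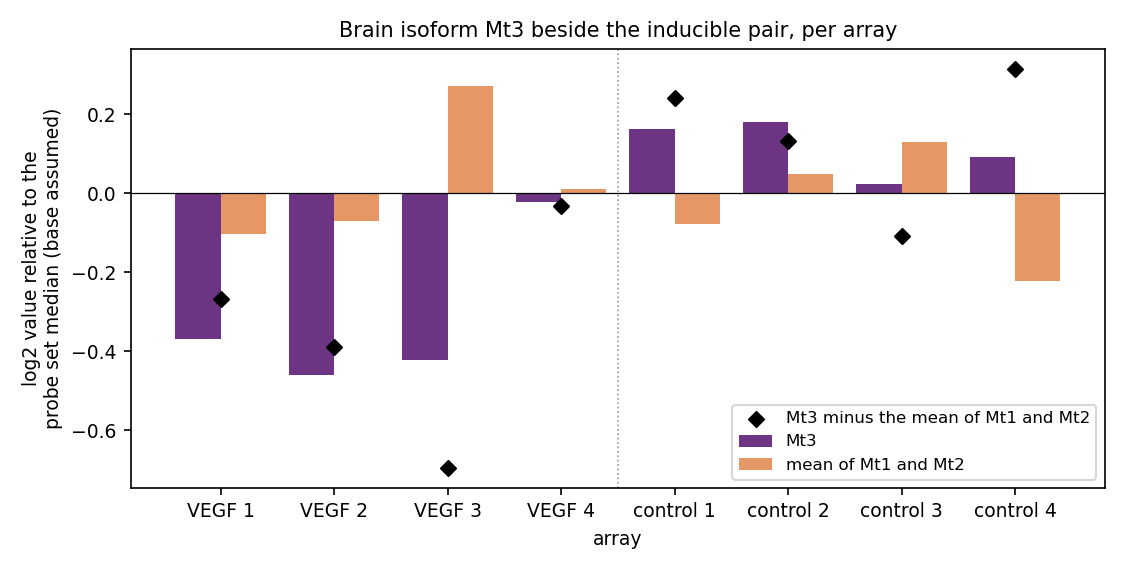
Mt3 (purple bars) and the mean of Mt1 and Mt2 (orange bars) on each array, with their difference as black diamonds (y axis, log2 scale relative to the probe set medians, base assumed; x axis, arrays, VEGF left of the dotted line). The diamonds lie at -0.70 to -0.033 in VEGF and at -0.11 to 0.31 in control.

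How the 3 genes varied together was read over the 8 arrays. For Mt1 and Mt2 Pearson's r was 0.588 (p = 0.116 in an exact two-sided permutation test, adjusted for 3 relations 0.174). Spearman's rho was 0.595 (exact permutation p = 0.132, adjusted 0.227). Without VEGF 3 and control 4, the arrays farthest from the median of Mt1, r was 0.0944, so the plain relation rested on those 2 arrays. With the group means removed r was 0.891 over all 8 arrays and 0.685 without the same 2, given as a description. Mt1 and Mt3 went in opposite directions with r = -0.621 (exact permutation p = 0.0892, adjusted 0.174) and rho = -0.571 (exact permutation p = 0.151, adjusted 0.227). Their r was -0.309 with the group means removed and -0.423 without VEGF 3 and control 4. Mt2 and Mt3 had r = 0.209 (exact permutation p = 0.593, adjusted 0.593) and rho = 0.143 (exact permutation p = 0.752, adjusted 0.752). Leaving out VEGF 1 and control 4 gave 0.243 for their r. None of the 3 relations passed. All share the same 8 arrays and contain the group difference, and 4 arrays are too few for a correlation within a group. Whether probes of one gene of the family also catch RNA of another was not tested.

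The genes whose pattern was most like each metallothionein were taken by Pearson's r over the 8 arrays, among 9197 named genes of at least median spread. For Mt3 they were Nkain2, a membrane protein that interacts with the sodium pump, with r = 0.990, the cohesin loader subunit Mau2 with 0.988, Flrt2, a membrane ligand of Unc5 receptors, with 0.984 and Wbp1 with 0.983. All 4 were lower in VEGF, with differences from -0.41 in Flrt2 to -0.14 in Mau2, and in all 4 VEGF 4 was the VEGF array nearest to control. For Mt1 they were the mitochondrial ornithine carrier Slc25a15 with r = 0.969, the transcription factor Sp1 with 0.960, the cytoskeletal Septin10 with 0.957 and the glycolytic kinase Pgk1 with 0.949. Their differences lay between 0.10 and 0.13, with the highest value of each in VEGF 3. For Mt2 they were Msantd3 with 0.917, the cytochrome P450 Cyp2j9 with 0.904, the prefoldin subunit Pfdn6 with 0.893 and Tmc7 with 0.880. An r of at least 0.9 was reached by 251 genes with Mt3, 54 with Mt1 and 2 with Mt2. With 8 arrays and so many genes searched, high values of r are common, and in Mt3 and Mt1 they are carried by few arrays.

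Genes of metal handling showed small differences beside that of Mt3. Mtf1 differed by -0.029 with an SE of 0.049, and the zinc exporter Slc30a1, its best known target beside Mt1 and Mt2, by -0.08 with an SE of 0.075. Of the list of Mtf1 and its targets 0 of 8 genes passed in either direction, with a median difference of -0.0019 against -0.010 over all genes, and Mt4 and Gclc, the catalytic subunit of glutathione synthesis, had its smallest p-values, at -0.10 and 0.062. Of the zinc exporters 0 of 10 passed, with a median of -0.0084. Slc30a3, which loads zinc into the synaptic vesicles of glutamatergic neurons, differed by 0.16 with an SE of 0.078 (adjusted p = 0.464), opposite in sign to Mt3. Its values were 0.25, -0.013, 0.081 and 0.013 in VEGF 1 to 4, against -0.21, 0.11, -0.058 and -0.14 in control 1 to 4, so the groups overlapped. Slc30a10, a transporter of manganese, differed by -0.11 with an SE of 0.073.

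Differences of zinc importers and copper genes were small as well. Of 14 importers 0 passed and the median was -0.014, though Slc39a3 and Slc39a11 had groups that did not overlap, at -0.13 and -0.09 (adjusted p = 0.313 and 0.345 in limma). Of all genes 6.84% had groups that did not overlap in either direction, against 3 of the 14 importers, all lower, the remaining one being Slc39a9 at -0.048, which was picked with its value in view. Of 14 measured copper genes of 15, 0 passed and the median was 0.0092. The copper chaperone Atox1 differed by -0.09 and the copper pump Atp7b by -0.06.

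Pathways that induce Mt1 and Mt2 were looked at in the same way. Of 13 measured glucocorticoid-responsive genes of 14, 0 passed, 10 were lower and the median was -0.049. Dusp1, a phosphatase of stress kinases, differed by -0.19 with an SE of 0.046 (adjusted p = 0.243) and the mTORC1 inhibitor Ddit4 by -0.19 with an SE of 0.064 (adjusted p = 0.31), while Fkbp5, a chaperone widely used as a readout of glucocorticoids, differed by 0.04 with an SE of 0.054. Of 12 genes of the gp130 and STAT3 response 0 passed and the median was -0.040, with the interleukin 6 receptor Il6ra at -0.14 and the acute phase gene Serpina3n at -0.16. Of 15 genes of the Nrf2 and oxidative response 0 passed, 10 were higher and the median was 0.035. Hmox1, heme oxygenase 1, differed by 0.68 with an SE of 0.084 (adjusted p = 0.219) and Gclm, the modifier subunit of glutathione synthesis, by 0.18 with an SE of 0.040 (adjusted p = 0.243). At an unadjusted p under 0.05 this list had 4 genes higher and 1 lower of 15, where all genes had 4.62% higher and 7.84% lower. The mean of the Nrf2 list was 0.042 to 0.091 in the VEGF arrays and -0.072 to -0.0065 in the control arrays. VEGF 4, at 0.047, thus stood among the other VEGF arrays here. In Mt3 it lay just under the control arrays and far from the other VEGF arrays.

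**Figure D3:**
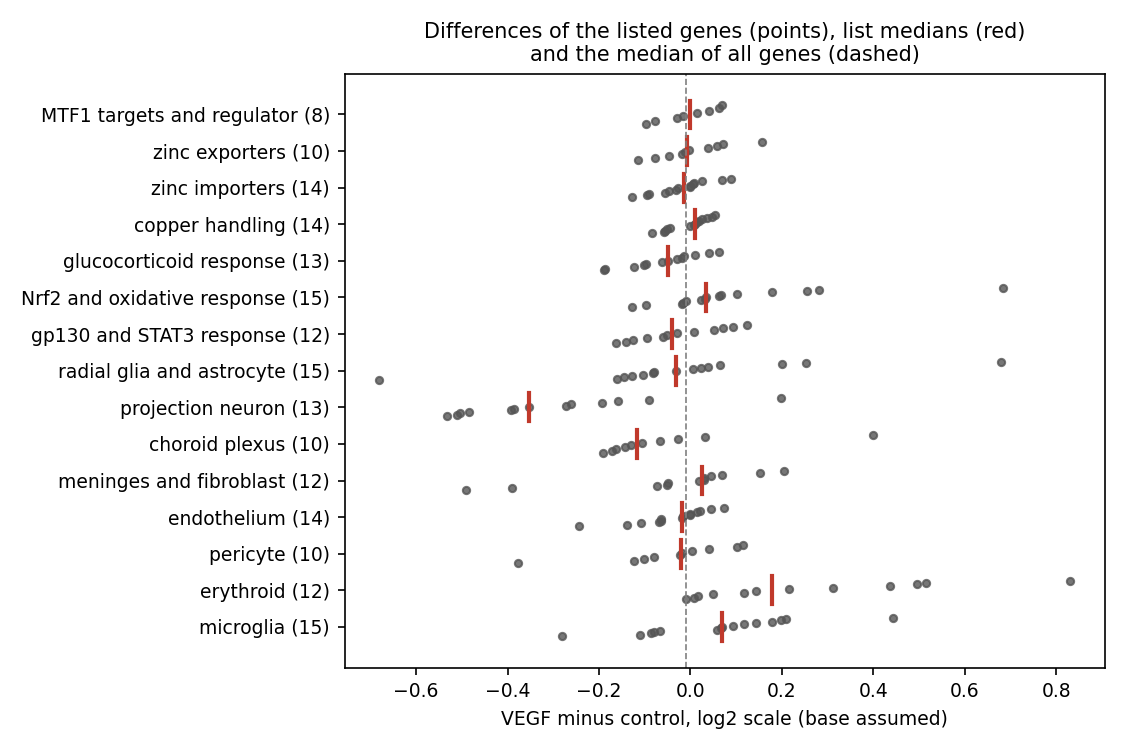
Difference VEGF minus control (x axis, log2 scale, base assumed) of every measured gene in each of the 15 lists (rows, number of genes in brackets), with the list median in red and the median of all genes, -0.010, as a dashed line. The metal handling lists lie around the dashed line, while the projection neuron list has a median of -0.35.

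Cell types that make metallothioneins were read from marker lists. In bulk tissue, fewer cells of a type and less RNA per cell cannot be told apart. The projection neuron markers had the lowest median of the 15 lists, -0.35, with 12 of 13 measured genes of 14 lower. Of these 0 passed over all genes, and 9 were lower at an unadjusted p under 0.05, where 7.84% of all genes were. The netrin receptor Unc5d differed by -0.53 with an SE of 0.081 and the deep-layer transcription factor Bcl11b by -0.48 with an SE of 0.126 (adjusted p = 0.243 each). These and other genes of the list were already known to be lower on these arrays when the list was drawn up, so it is no independent evidence of its direction. The mean of the list was -0.31, -0.36, -0.23 and 0.033 in VEGF 1 to 4, against 0.15, 0.038, 0.038 and 0.12 in control 1 to 4. The same 3 VEGF arrays were low as in Mt3, and VEGF 4 again lay just under the lowest control array. In a linear model with that list mean as a covariate, added after seeing the data, the Mt3 difference was -0.13 with an SE of 0.094, that of Mt1 0.13 with an SE of 0.197 and that of Mt2 -0.026 with an SE of 0.233. The list was drawn from genes known to be low on these arrays, and its mean goes largely with the group. List and group can therefore not be told apart in this fit, and nothing is read from the smaller Mt3 difference. Within the VEGF group, VEGF 4 was the highest array in both Mt3 and the list mean. The part of neuronal content in the Mt3 difference was not tested.

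**Figure D4:**
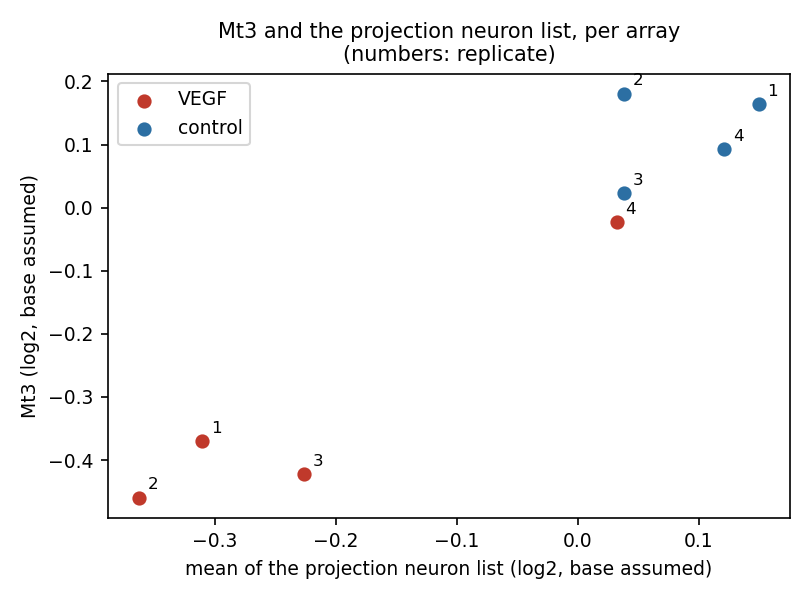
Mt3 (y axis) against the mean of the projection neuron list (x axis) on each array, both on the log2 scale with the base assumed, for VEGF (red) and control (blue) with replicate numbers. VEGF 1 to 3 lie at the lower left, with list means of -0.36 to -0.23, and VEGF 4 lies beside the control arrays.

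The means of the glial and barrier lists overlapped between the groups, while single members varied. The radial glia and astrocyte list, which covers the glia that make all 3 genes, had 7 of 15 measured genes of 16 higher, 8 lower, 0 past the test and a median of -0.032. Its mean was -0.081 to 0.032 in VEGF and -0.021 to 0.099 in control. Single markers went far in both directions, with Hopx of radial glia at 0.68 (SE 0.127) and Aldh1l1 of astrocytes and radial glia at -0.68 (SE 0.167), and Gfap itself at -0.08 (SE 0.053). Groups did not overlap in 2 of the 15 with VEGF higher and in 2 with VEGF lower, where 2.13% and 4.71% of all genes did so. The 2 higher were Hopx and Gja1. The 2 lower were Aldh1l1 and Aqp4, in which all 4 VEGF arrays lay below every control array, as in Mt3. Aqp4 stood at -0.065 to -0.019 in VEGF, against 0.019 to 0.13 in control. S100b of astrocytes, picked with its values in view, had VEGF 1 to 3 below every control array, as in Mt3. It stood at -0.07, -0.11, -0.19 and 0.066 in VEGF 1 to 4, against -0.0018 to 0.10 in control. Unlike in Mt3, VEGF 4 lay above every control array but control 2. The part of glial content in the Mt3 difference was not tested. Choroid plexus and meninges are rich in Mt1 and Mt2. The choroid plexus list had 2 genes higher and 8 lower, a median of -0.12 and 0 of 10 past the test. Aqp1 was at -0.17, Folr1 at -0.14 and Ttr at -0.07. Otx2, picked with its values in view, had the largest difference of the list, 0.40 (SE 0.288), with 0.73 in VEGF 1 and 0.85 in VEGF 2. The mean of the choroid plexus list was -0.18 to 0.16 in VEGF and -0.068 to 0.23 in control. The meninges and fibroblast list had 7 genes higher and 5 lower, a median of 0.024 and 0 of 12 past the test, with Slc6a13 at -0.49 and Crabp2 at 0.21. Its mean was -0.44 to 0.11 in VEGF and -0.21 to 0.16 in control, and its lowest arrays, VEGF 3 and control 3, were those with the highest Mt1 and Mt2 of their groups. Slc6a13 and the transporter Slc22a6 (picked with its values in view) had VEGF 1 to 3 below every control array, as in Mt3. No other gene of the list did, and VEGF 4 lay within the control range in both genes, unlike in Mt3. Slc6a13 stood at -0.18, -0.24, -0.87 and 0.14 in VEGF 1 to 4, against -0.11 to 0.47 in control, and Slc22a6 at -0.16, -0.22, -0.78 and 0.28, against -0.12 to 0.53 in control. The part of meningeal tissue in the values of the 3 metallothioneins was not tested.

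Vascular and blood markers varied by array as well. The endothelial list had a median of -0.018, with Cldn5 at -0.24 and Tie1 at -0.11, and the pericyte list one of -0.020, with Vtn at -0.38 and Notch3 at 0.10. In both 0 genes passed, of 14 and 10, and VEGF 3 had the lowest mean of the 8 arrays, -0.24 and -0.26. The means of the other VEGF arrays lay within the range of the control arrays in both. The erythroid list had a median of 0.18 with 0 of 12 measured genes of 19 past the test, Alas2 at 0.83 (SE 0.276) and the embryonic globin Hbb-y at 0.44 (SE 0.165). VEGF 1 to 4 had list means of 0.57, 0.049, 0.23 and -0.012, and the control arrays lay between -0.13 and 0.0084. With this mean as a covariate the Mt3 difference was -0.36 with an SE of 0.115, that of Mt1 0.18 with an SE of 0.125 and that of Mt2 -0.0021 with an SE of 0.14. The microglia list had a median of 0.069 with 0 of 15 past the test, Lyz2 at 0.44 and P2ry12 at -0.28, and means of -0.041 to 0.16 in VEGF and -0.14 to 0.068 in control.

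The genes around the cluster were read as well. By RefSeq gene order in GRCm38.p6, 6 measured genes on each side were taken, a choice made after the values of the cluster were seen. Of these 12 genes 8 were lower and 4 higher, with differences between -0.05 and 0.18, and 0 of them had groups that did not overlap, from which nothing can be read at the 6.84% of all genes. The nearest one before Mt4 is Bbs2, at -0.05 with an SE of 0.055. The nearest one after Mt1 is Nup93, a nuclear pore protein, which had the largest difference of the 12, 0.18 with an SE of 0.064 (adjusted p = 0.323 in limma). It stood at -0.014, 0.22, 0.20 and 0.013 in VEGF 1 to 4, against -0.14, -0.048, 0.016 and -0.12 in control 1 to 4. The difference in Mt3 was larger in size than those of the 12 genes and of the other metallothioneins, with no test of one gene's difference against another's.

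**Figure D5:**
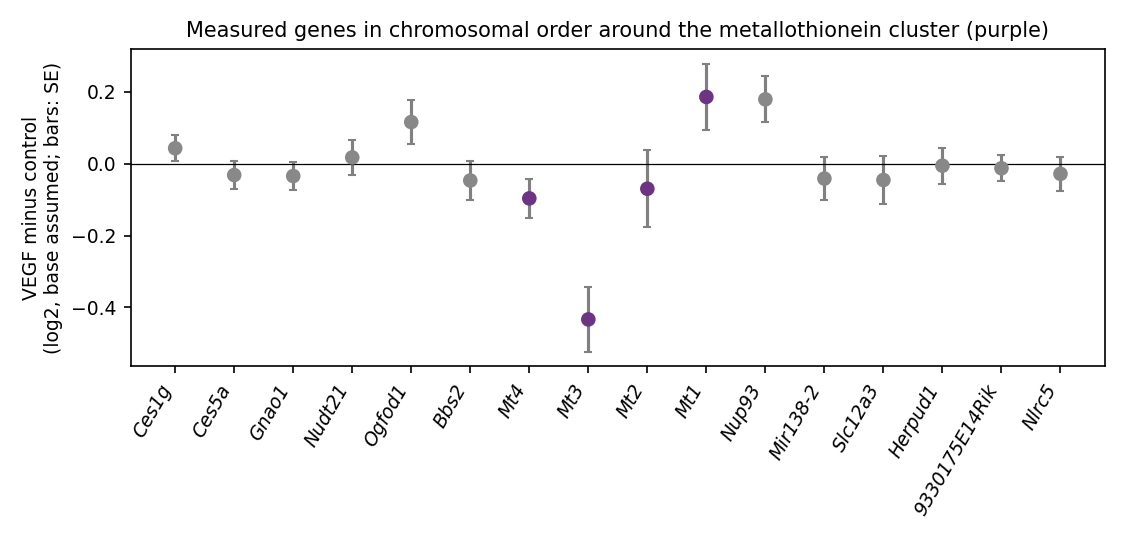
Difference VEGF minus control with its SE (y axis, log2 scale, base assumed) for the measured genes in chromosomal order around the metallothionein cluster (x axis). The 4 metallothioneins are purple and the 6 genes on each side grey, and Mt3 at -0.43 lies below all the others, which span -0.10 to 0.19.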

How the data were processed

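Cortex RNA was extracted with a Qiagen RNeasy kit, and 120 ng was labelled with Ambion and Affymetrix whole-transcript kits, per the labels' protocols. Affymetrix Expression Console and the build mm8 appear in the submitters' processing notes, GeneSpring and an unpaired t-test in the series text. The values deposited by the authors are taken as log2, for 28853 probe sets, each centred to a median within 5e-07 of 0. No source used here gives the base or the background correction.

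Probe sets with 1 symbol (21789) were named through the platform annotation, updated by Entrez identifier to RefSeq (21698 matched), and averaged per gene. Probe sets with several symbols (1621) or unnamed here (5443) were left out. The fit was limma 3.58.1 in R 4.3.3, VEGF minus control over all 8 arrays without covariates, with Benjamini-Hochberg adjustment over 19938 genes at 0.05. It was tested on simulated data. No 2 arrays held identical values. Precision is limited by the number of arrays, and signal over background is unknown.

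The members and lists were chosen with earlier results of these data known. Named genes were the members, 9 further genes fixed by name, the 2 of smallest p in each list, and the 4 of highest r with each member. Alternatives were other scalings, covariates, priors, weights, the methods' t-test and leaving out each array.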

Additional observations from a re-analysis of the deposited data

Results flagged for a closer look

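A test for a single array far from the other 3 of its group was applied to the metallothioneins and all named genes, in which chance flags about 1 group in 20. Among the metallothioneins it picked out Mt1 in VEGF 3, at 0.36 where the other VEGF arrays lay between -0.0094 and 0.013. Among the genes most like Mt1 it picked out VEGF 3 too, with Pgk1 at 0.29 and Sp1 at 0.19, genes that were chosen for their likeness to Mt1. Among the genes most like Mt3 it picked out VEGF 4, with Nkain2 at 0.0062, where the other VEGF arrays lay between -0.21 and -0.18, and Wbp1 at -0.019. Unc5d in VEGF 4 stood at -0.10, with the other VEGF arrays between -0.44 and -0.42. Tie1 in control 3 stood at -0.22, with the other control arrays between 0.061 and 0.11. In all, 7 groups were picked out of 102 examined. Mt3 in VEGF 4 was not picked out.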

How the results depend on the processing

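The difference in Mt3 kept its sign under all 16 alternatives run, and lay between -0.53 and -0.39 when single arrays were left out. It moved by more than the spread between arrays only with the projection neuron list mean as a covariate, at -0.13. In that fit list and group cannot be told apart. Mt1 kept a positive and Mt2 a negative difference under all 16, with 0.098 to 0.24 and -0.15 to -0.011 when single arrays were left out. Mt3 minus the mean of Mt1 and Mt2 lay between -0.60 and -0.38. Leaving out single arrays, r lay between 0.42 and 0.69 for Mt1 and Mt2, between -0.75 and -0.46 for Mt1 and Mt3, and between 0.0097 and 0.55 for Mt2 and Mt3, and no relation passed. The count of genes past the test was 0 in every alternative except without VEGF 4, where it was 10, Mt3 among them. That of listed genes, which do not include Mt3, was 0 except without VEGF 4, where it was 2, Hmox1 and Unc5d. With the replicate number as a block 0 genes passed, and the Mt3 difference was -0.43. Every replicate number has a single array in each group, so this block could not change any difference between the groups or its sign. Deviations of same-numbered arrays from their group means had correlations of 0.052, -0.13, 0.45 and 0.30. Those of differently numbered arrays lay between -0.42 and 0.52. These values do not settle whether the numbers pair the arrays. No gene of the family had a second probe set to test alone. Restricting the comparison to the 2 VEGF and 3 control arrays with a male pattern, an alternative added after seeing the data, gave -0.34 for Mt3.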
